A study of Mus musculus with 20 samples.

Results

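The genes described here encode the mitogen-activated protein (MAP) kinases, the kinases that act above them, and dual specificity phosphatases. Some of these phosphatases switch MAP kinases off, and others were included by their Dusp symbol alone. Their members were the peaks of 10 lists of accessible chromatin whose nearest gene, as deposited, carries a Map2k, Map3k, Map4k, Mapk or Dusp symbol followed by a number, with Dusp1 left out. They comprised 2141 of 504887 listed peaks, at 62 genes of the 19738 with any peak. RefSeq lists 66 such genes, and the 4 without an assigned peak were Map3k10, Mapk10, Mapk15 and Dusp15.

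In the MAP kinase cascade a MAP4K or a small GTPase activates a MAP3K, which phosphorylates a MAP2K, which in turn phosphorylates a threonine and a tyrosine of the MAP kinase itself. ERK kinases carry growth factor and cytokine signals, and JNK and p38 kinases carry stress and inflammatory signals. The dual specificity phosphatases that act on MAP kinases remove both phosphates, and several of them are transcribed in response to the kinases they inactivate. In myeloid cells the cascade acts below the receptors for stem cell factor, colony-stimulating factors and bacterial products.

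Open chromatin was profiled by ATAC-seq, a transposase-based assay, in 20 samples of ER-Hoxa9-Lys-GFP cells, a mouse line of the C57BL/6 strain kept in vitro. The name denotes the homeobox factor Hoxa9 joined to an estrogen receptor, and a GFP reporter at the lysozyme gene. All groups carry both, and all were grown in medium with serum and stem cell factor. With estradiol (E2) present, which keeps such a fusion protein active, the cells formed the 0 h group, and the other groups were taken 4, 8, 12, 24, 36, 48, 72, 96 and 120 h after E2 was washed away. Each group had 2 samples and 1 deposited list, so replicates cannot be compared and no test was made. Nuclei of a preparation were divided between 2 transposition reactions per the labels' protocols, so that samples of a group may be technical replicates. The labels do not say whether the line is a single clone.

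Up to 48 h a list held between 54717 and 62559 peaks (55261 in the 0 h list), and the 72, 96 and 120 h lists held 46837, 29806 and 23620. Read depth is unknown, since the lists carry no counts, and a list with fewer reads would be shorter. Whether list length moved the counts below was not tested on reads. Among marker genes, those of neutrophils had 7 peaks in the 0 h list and 14 in the last, with more in the last for 5 of 7 genes. Markers of immature progenitors had 42 and 15 peaks, of macrophages 17 and 8, of erythroid cells 10 and 5, and of lymphoid cells 3 and 0. Ltf and Cd177 had no peak at 0 h and 4 and 2 at 120 h. The 2 neutrophil markers without a rise were Mmp8, with 3 peaks at 0 h and 1 at 120 h, and Mmp9, with 2 at both.

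Promoter sequences are shown first, because promoters of these genes showed each of the courses described below: gained, constant, lost, and listed on and off. The 250 bases before a RefSeq start site of assembly GRCm38.p6, the same sequence as mm10, are given 5′ to 3′ on the gene's strand. Capitals mark a match to a motif searched on both strands. Dusp3 had the only gained promoter region among these genes and Map2k6 a constant and a lost one. Dusp5 and Dusp8 had promoter peaks listed on and off.

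Dusp3, gained from 12 h, chr11:101984792-101985041, minus strand: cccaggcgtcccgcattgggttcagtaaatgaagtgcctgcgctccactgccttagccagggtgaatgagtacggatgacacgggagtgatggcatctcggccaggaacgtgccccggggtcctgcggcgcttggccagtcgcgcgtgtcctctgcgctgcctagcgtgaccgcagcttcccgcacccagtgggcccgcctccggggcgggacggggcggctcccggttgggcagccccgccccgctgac

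Map2k6, constant promoter, chr11:110398852-110399101, plus strand, with an AP-1 match: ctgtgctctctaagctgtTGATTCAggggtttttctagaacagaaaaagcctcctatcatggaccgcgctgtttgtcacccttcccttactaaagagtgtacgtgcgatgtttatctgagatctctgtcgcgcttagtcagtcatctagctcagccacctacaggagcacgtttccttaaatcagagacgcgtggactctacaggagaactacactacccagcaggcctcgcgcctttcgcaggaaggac

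Map2k6, lost internal promoter, chr11:110479090-110479339, plus strand: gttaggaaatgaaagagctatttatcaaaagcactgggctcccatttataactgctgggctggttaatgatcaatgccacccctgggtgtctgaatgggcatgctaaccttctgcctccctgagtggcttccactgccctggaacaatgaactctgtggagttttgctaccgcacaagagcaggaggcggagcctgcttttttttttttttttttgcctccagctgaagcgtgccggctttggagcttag

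Dusp5, listed at 8 of 10 times, chr19:53528895-53529144, plus strand, with a PU.1 match: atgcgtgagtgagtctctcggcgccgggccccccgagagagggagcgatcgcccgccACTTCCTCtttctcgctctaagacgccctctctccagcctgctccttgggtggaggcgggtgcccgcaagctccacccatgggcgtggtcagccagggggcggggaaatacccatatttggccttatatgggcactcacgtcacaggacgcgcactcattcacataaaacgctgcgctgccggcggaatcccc

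Dusp8, listed at 4 of 10 times, chr7:142095285-142095534, minus strand, with CRE matches: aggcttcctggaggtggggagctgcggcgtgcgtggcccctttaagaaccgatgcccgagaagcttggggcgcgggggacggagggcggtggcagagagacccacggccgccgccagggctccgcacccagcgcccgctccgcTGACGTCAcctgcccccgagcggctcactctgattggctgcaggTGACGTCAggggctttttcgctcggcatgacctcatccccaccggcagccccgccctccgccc

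The windows of the 62 genes and their 4 unlisted relatives were rich in G and C. Of the 66 genes, 51 were matched in the promoter table, with 66 windows, whose median GC content was 62.8% against 52.4% over all 32851 windows. Their median number of CG dinucleotides was 16 against 6. The PU.1 motif GAGGAAGT, named for the myeloid ETS factor, stood in 2 of the 66 windows (Dusp5 and Map3k3), a share of 3.03% against 2.44% of all windows. The AP-1 motif TGANTCA stood in 4 (6.06% against 6.75%), at Dusp13, Map2k6, Map2k7 and Map3k10. CRE, spelled TGACGTCA, was found in 2 windows (3.03% against 1.55%), at Mapk10 and, at both capital runs shown, at Dusp8. The E-box CACGTG was found in 4 (6.06% against 6.02%) and the NF-kB motif GGGANTTCC in 1, that of Map4k2 (1.52% against 1.43%). The C/EBP motif TTGCGCAA and the Hox-Pbx motif TGATTTAT were in none of them, and in 0.164% and 0.837% of all windows. Matches of different motifs overlapped 0 times in the members' windows, and the shares lay near those of all promoters.

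Across the time course the number of promoter peaks of these genes varied little, while distal peaks, those over 1000 bp from a transcription start site (TSS), were fewer in the late lists. Promoter peaks numbered 45, 47, 43, 44, 47, 43, 46, 43, 40 and 43 in the lists from 0 to 120 h. Distal peaks numbered 187, 178, 181, 199, 206, 195, 212, 163, 105 and 74. The distal count was thus highest at 48 h and lowest at 120 h, and the promoter count moved within 40 to 47. Summed over both kinds, the genes had 232 peaks at 0 h and 117 at 120 h, a log2 ratio of -0.98 with 0.5 added to each sum, against -1.23 for all genes.

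**Figure D1:**
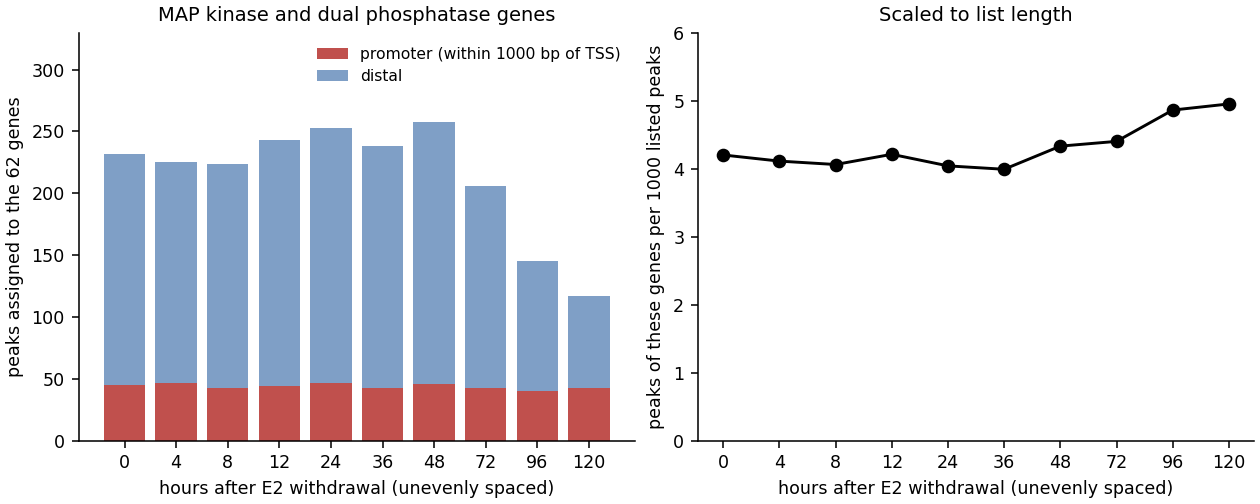
Peaks assigned to the 62 genes in each of the 10 lists, as promoter and distal counts (left, bars) and per 1000 peaks of the same list (right, points). Promoter counts stay between 40 and 47, distal counts go from 187 at 0 h to 74 at 120 h, and the scaled value is between 3.99 and 4.95 throughout.

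The late lists were shorter, and scaled to list length the count was not lower at the end. Per 1000 peaks of a list the genes held 4.2 at the start, a low of 3.99 in the 36 h list, and then 4.4, 4.86 and 4.95 in the 72, 96 and 120 h lists. When only the 23620 widest peaks of each list were counted, they had 112 peaks in the first list and 117 in the last, and the log2 ratio was 0.06 in place of -0.98. All lists then hold the same number of peaks, so that the ratio over all peaks is fixed in advance at no change. The value of 0.06 lies near that and is not a separate result about these genes. The setting shortens the lists and selects wide peaks at once, so that the part of either was not tested.

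Single genes mostly had fewer or as many peaks at 120 h as at 0 h. Of the 56 genes with a peak in either list, 36 had fewer at 120 h (64.3%), against 71.4% of all genes with a peak in either. A further 19 had as many, and 1 had more (1.79%), against 7.82% of all genes. Both shares were at or below those over all genes. With lists of equal length 12 genes had fewer, but the share over all genes was not counted under that setting. Dusp3 was the gene with more. Of 19 genes with equal counts, 11 had 1 peak at both times, among them Map2k1, Map2k2 and Map2k7, which encode activators of ERK and JNK. These counts follow the gene assigned to each single peak, which can differ between lists. Map4k1 thus had 2 peaks at 0 h and 0 at 120 h, although its promoter region was present in all 10 lists.

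**Figure D2:**
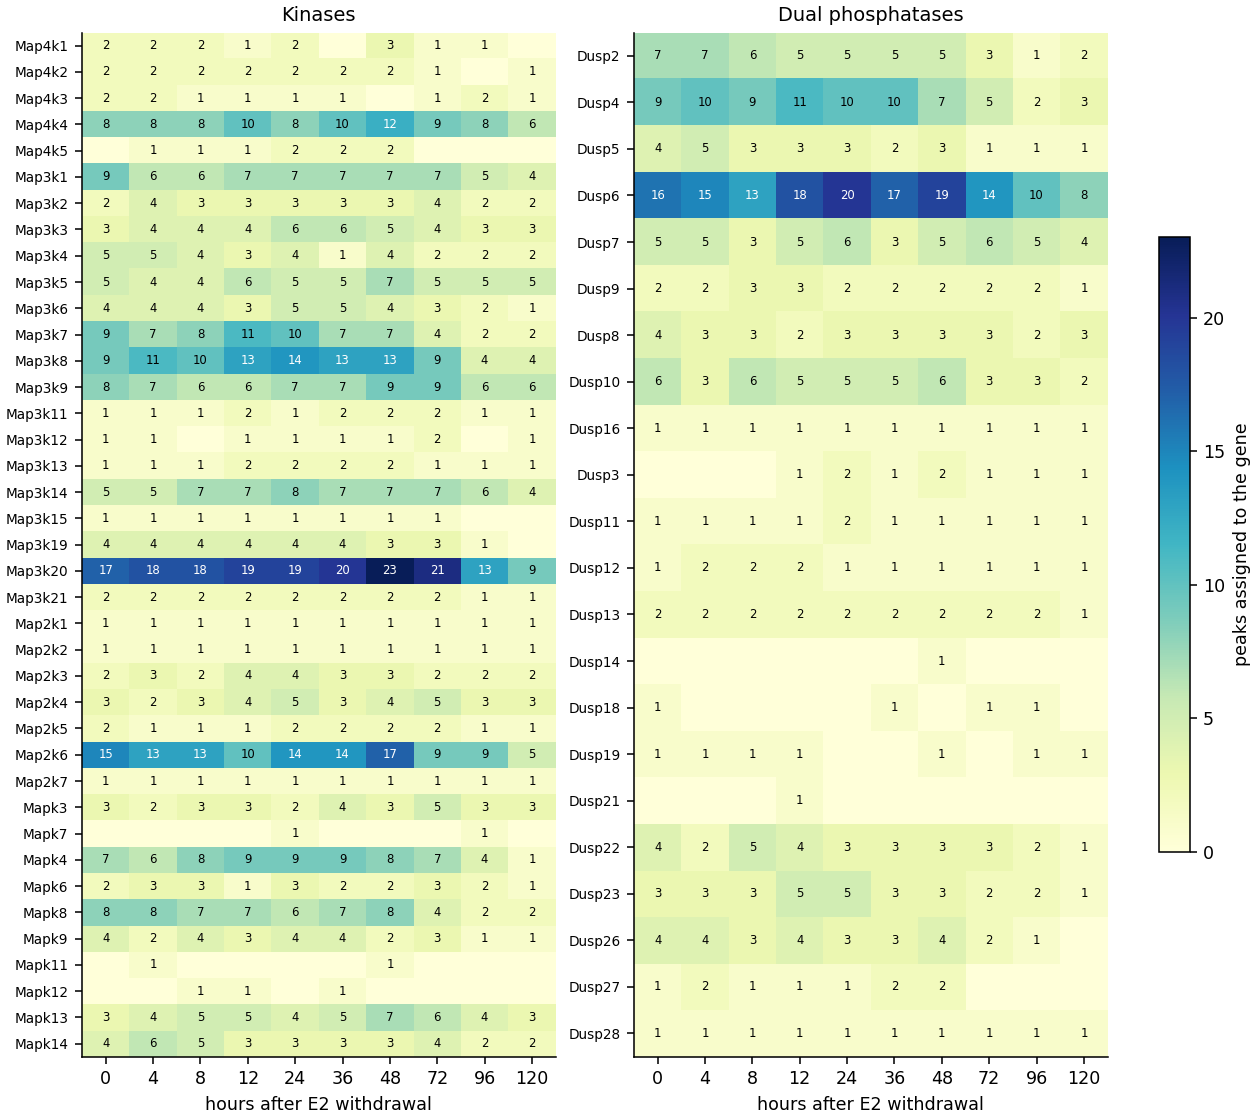
Peaks assigned to 39 kinase genes (left) and 22 phosphatase genes (right) in each list, with the count written in the cell and no number where none is assigned. Map3k20, Dusp6 and Map2k6 have the highest counts, and Dusp3 has none up to 8 h.

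The next comparison was which 0 h peaks of these genes were still overlapped later, by at least 1 bp. Of 45 promoter peaks 38 were overlapped at 120 h, or 84.4% (95% Wilson interval 71.2 to 92.3%), against 75% of all 0 h promoter peaks, which lies inside the interval. Of 187 distal peaks 55 were overlapped at 120 h, or 29.4% (23.3 to 36.3%), against 22.5% of all. The distal share was 82.4% at 8 h, 78.1% at 48 h (71.6 to 83.4%), 59.4% at 72 h (52.2 to 66.1%) and 41.2% at 96 h (34.4 to 48.3%). Over all genes it was 80.6%, 70.5%, 54.3% and 30.6%. The intervals cover counting error only, and peaks of a gene are not independent, so the higher late shares at these genes were not tested. At equal list length the distal shares were 43.1% here and 35.4% over all genes, and in the widest 50% of each list 20.7% and 15.2%.

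**Figure D3:**
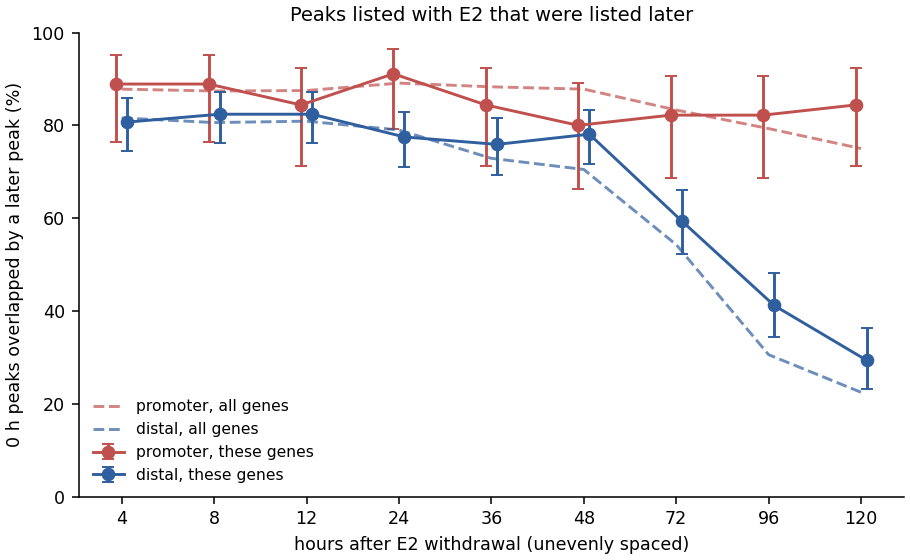
Share of 0 h promoter and distal peaks of these genes overlapped by a peak of each later list (points, with 95% Wilson intervals as bars) and of all genes (dashed lines). The promoter share ends at 84.4% and the distal share at 29.4%, against 75% and 22.5% over all genes.

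Peaks that stayed were wider at 0 h. Distal peaks kept at 120 h had a median width of 586 bp and those not kept 419.5 bp, with ranges of 216 to 1369 and 203 to 1250 bp that overlapped. Over all genes the medians were 538 and 406 bp. The 7 promoter peaks not kept had a median of 386 bp against 918 bp for those kept. Over all genes these medians were 541 and 897 bp.

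Distal retention by tier of the cascade rests on small counts, and differences between tiers were not tested. Of the 0 h distal peaks, 26 of 74 at MAP3K genes were overlapped at 120 h (35.1%), 5 of 11 at MAP4K genes (45.5%) and 5 of 17 at MAP2K genes (29.4%). It was 1 of 10 at the JNK genes (10.0%) and 3 of 5 at the p38 genes. Among the phosphatases, Dusp6, Dusp7 and Dusp9, which act on ERK in the cytoplasm, kept 7 of 21 (33.3%). The inducible nuclear phosphatases Dusp2, Dusp4 and Dusp5 kept 2 of 17 (11.8%). At Dusp8, Dusp10 and Dusp16 it was 2 of 9 (22.2%), and at the other dual phosphatases 1 of 11 (9.09%). The atypical MAP kinase genes kept 1 of 8 (12.5%). By gene, 15 of the 43 with a distal peak at 0 h kept none, 22 kept some and 6 kept all, Mapk13 with 3 of 3 and Map3k3 with 2 of 2 among the last. A gene with 1 distal peak, such as Map3k13, could only keep all or none. The same counts were not made over all genes, so these have no share beside them.

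Peaks that overlapped between lists were joined into 88351 regions, 368 of which belonged to these genes, 53 at promoters and 315 distal. Gained here means missing from the 0, 4 and 8 h lists but found in those of 72, 96 and 120 h, and lost means the reverse. By this rule 13 regions at 11 genes were gained, or 3.53% of 368 against 2.38% of all regions, and 40 at 22 genes were lost, or 10.9% against 12.5%. A further 59 were constant, being present in all 10 lists (16% against 13.8%). Transient regions, found in 2 or more neighbouring lists from 12 to 72 h but in none of the 0, 4, 96 and 120 h lists, numbered 29 (7.88% against 9.65%). Among the 315 distal regions 12 were gained (3.81% against 2.56% of all distal regions), 38 lost (12.1% against 14%), 39 constant (12.4% against 9.13%) and 28 transient (8.89% against 10.9%). These shares were near those over the genome, with more constant and fewer lost regions by a few percentage points, which was not tested. At least 1 gained region stood at 11 of 62 genes, against 8.85% of all genes, and at least 1 lost region at 22, against 35.7%, but these genes had a median of 4.5 regions each and were not matched to others for that number.

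The 13 gained regions were mostly away from promoters. They included intronic regions of Map3k1, Map3k5, Map3k9, Map3k20 and Dusp3 and regions between genes at Map2k6, Map3k8, Mapk3, Dusp6 and Dusp7, with a median distance to the TSS of 17.8 kb against 19.5 kb for all gained regions. Their unbroken presence began in the 12 h list for 3, and in the 24, 36, 48 and 72 h lists for 2, 3, 2 and 3. Over all gained regions the shares for these lists were 21.2, 30.6, 14, 13.4 and 20.9%. Repeats underlay 5 of the 13 (38.5%, against 25.8% of all gained regions), 2 LTR, 2 SINE and 1 LINE. Many of these calls depended on the peaks counted. Map2k6, Map3k1, Map3k5, Mapk3 and Dusp7 had no gained region with lists of equal length or with the widest 50% of each list, and Dusp6 and Map3k9 had one only at equal length. Map3k8, Map3k20 and Dusp3 had one under both. Of the 40 lost regions, unbroken presence ended with the 48 h list for 23 (57.5%, against 36.2% of all lost regions) and with the 8 h list for 8 (20.0% against 17.5%). Their median distance was 26.1 kb and that of the constant regions 6.82 kb, against 23.9 and 3.91 kb over all genes. Of the 22 genes with a lost region, Map2k6, Map3k19, Map3k20, Dusp5 and Dusp6 also had one under both reductions. Among those with one under neither were Map3k1, Map3k6, Map3k7, Map3k14, Map4k4, Mapk4, Mapk8, Mapk14, Dusp26 and Dusp27.

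Map3k8 and Map2k6 each had 2 gained regions and several lost ones. Map3k8 encodes Tpl2, the MAP3K that couples NF-kB signals to ERK in myeloid cells. It had 9, 11, 10, 13, 14, 13, 13, 9, 4 and 4 peaks in the lists from 0 to 120 h, most at 24 h and fewest at 96 and 120 h. Its gained regions lay downstream of the TSS between genes on chromosome 18, 1 at 4287631 to 4288434 (64.9 kb, listed from 12 h) and 1 at 4313661 to 4314449 (38.9 kb, from 24 h). They stood among others with the opposite course. Lost regions lay at 4278303 to 4278780 and 4295826 to 4296327, the latter beside a constant region at 4294963 to 4295596. Within the gene, an exonic region at 4333529 to 4334238 and an intronic one 3.18 kb from the TSS were lost, and an intronic region at 4337061 to 4337552 was listed only from 8 to 72 h. A promoter peak of 866 to 903 bp was assigned to Map3k8 in the 0, 4, 24, 36, 48 and 72 h lists and is in its counts, although the merged promoter region went to another gene. With lists of equal length and with the widest 50% of each list Map3k8 again had a gained region, and it had a lost one only under the latter.

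Map2k6 encodes MKK6, an activator of p38. It had 15, 13, 13, 10, 14, 14, 17, 9, 9 and 5 peaks from 0 to 120 h, so that the 3 lowest late counts came after a maximum at 48 h. Its 6 lost regions, the most of any of these genes, all overlapped the gene itself (chromosome 11, 110399102 to 110525522). Lost promoter region 110478986 to 110479405, whose sequence is shown above, lies 145 bp before an internal start site and was listed at 0, 4, 8 and 24 h. The promoter at 110398732 to 110399550 was present in all 10 lists. Both gained regions lay between genes beyond the 3′ end, 214 kb (110692524 to 110693240, from 36 h) and 223 kb (110702008 to 110702603, from 24 h) from the nearest Map2k6 start site. At such distances the assignment to the nearest gene is positional only.

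**Figure D4:**
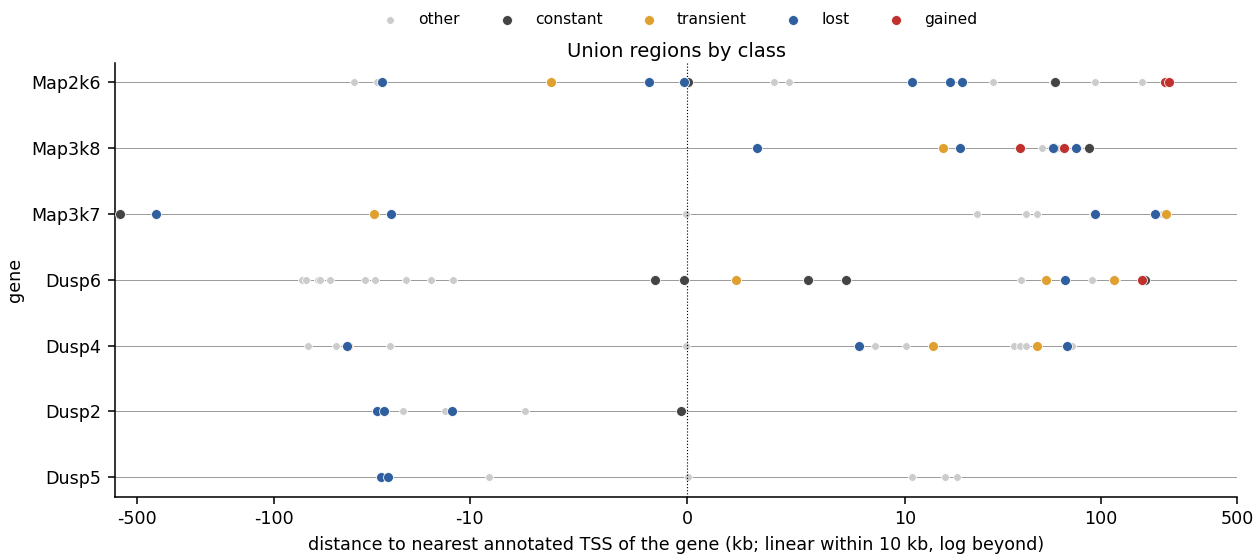
Regions of 7 genes by distance in kb to the nearest annotated start site of the gene as deposited (linear within 10 kb, log beyond), coloured by class. Map2k6 has its gained regions at 214 and 223 kb, Map3k8 has gained and lost regions interleaved, and Dusp2, Dusp4 and Dusp5 have lost and no gained ones.

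Other MAP3K genes mixed constant and changing regions. Map3k20, which encodes the stress kinase ZAK, had 17, 18, 18, 19, 19, 20, 23, 21, 13 and 9 peaks, the highest count of these genes in every list except that of 24 h, where Dusp6 had 20. It had 5 constant, 3 transient, 1 lost and 1 gained region, the last in its intron at 72351226 to 72351879 on chromosome 2 from 36 h. Of its 24 regions, 10 lay in introns of the neighbour Rapgef4, 2 of them constant. Map3k5, which encodes the stress-activated kinase ASK1, had 5 peaks at 0 h and 5 at 120 h. In its intron a gained region (19941956 to 19942338 on chromosome 10, from 48 h) stood beside a constant one at 19941094 to 19941583. Map3k1, an activator of JNK, had 9 peaks at 0 h and 4 at 120 h. Its introns held 2 constant regions, 1 transient, 1 lost and 1 gained at 111805224 to 111805555 on chromosome 13. Map3k9 had 8 and 6 peaks, with an intronic region gained at 72 h (81764311 to 81764798 on chromosome 12).

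Map3k7 and Map3k14, kinases that act in NF-kB signalling, had lost and no gained regions in the deposited lists. Under both reductions of the lists by width neither had a lost region, and Map3k14 had a gained one. In the deposited lists every Map3k14 region present at 72, 96 and 120 h was also listed at 0, 4 or 8 h. The gained call thus arose only once narrower peaks were left out. Map3k7, which encodes TAK1, had 9, 7, 8, 11, 10, 7, 7, 4, 2 and 2 peaks, high up to 24 h and low from 96 h. Its 4 lost regions lay between genes at 25.2, 93.1, 190 and 402 kb from the TSS, and 1 of its 8 distal 0 h peaks was kept. Map3k14, which encodes NIK, had 5 peaks in the 0 h list, 8 in the 24 h list and 4 in the last, with 2 regions of its first intron lost. Map3k19 had 4 peaks in each list up to 36 h, 1 at 96 h and none at 120 h. Map4k4, the MAP4K with most peaks, had 8 in the first list, 12 in the 48 h list and 6 in the last, with 4 constant regions and 1 lost, and kept 4 of 8 distal peaks.

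At the kinases that end the cascade, Mapk3 had as many peaks at the end as at the start and the JNK genes fewer. Mapk3, which encodes an ERK kinase, had 3, 2, 3, 3, 2, 4, 3, 5, 3 and 3 peaks, and its promoter was present in all lists. At Mapk3 a region 6.69 kb upstream (chromosome 7, 126752657 to 126753221) was gained, present at 24 and 36 h and from 72 h on. The JNK gene Mapk8 had 8, 8, 7, 7, 6, 7, 8, 4, 2 and 2 peaks, with a constant promoter and 2 lost regions, 1 of them in an intron of the neighbour Arhgap22. Mapk9, which also encodes a JNK, went from 4 peaks to 1. Mapk4, an atypical MAP kinase gene, had 7 peaks in the first list, 9 from 12 to 36 h, and 4 and 1 in the last lists.

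The p38 genes Mapk13 and Mapk14 lie side by side on chromosome 17. Mapk14, which encodes p38 alpha, had 4 peaks at 0 h, 6 at 4 h and 2 at 120 h. Its main promoter region was missing only from the 36 h list, and a narrow region of 220 bp at a second start site was listed at 0, 4 and 8 h only and counted as lost. Mapk13, which encodes p38 delta, had 3, 4, 5, 5, 4, 5, 7, 6, 4 and 3 peaks. A region 616 bp inside Mapk13 (28769375 to 28770655) was listed from 8 to 72 h, with widths of 913 to 1117 bp, and at no other time. It was the 1 transient promoter region of these genes, or 1.89% of 53 against 2.53% of all promoter regions. Mapk11 and Mapk12 had at most 1 peak in any list.

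The inducible nuclear phosphatases had few distal peaks in the last list. Dusp2, Dusp4 and Dusp5 together had 20, 22, 18, 19, 18, 17, 15, 9, 4 and 6 peaks, with 17 distal at 0 h and 2 at 120 h. Of their 30 regions 8 were lost (26.7%), against 12.5% over all regions, a difference on few regions that was not tested. None was gained, which is near the 2.38% gained over all regions. With lists of equal length, Dusp5 alone of the 3 genes had a lost region, and with the widest 50% of each list all 3 had one. Dusp2, which inactivates ERK and p38, had 7 peaks at 0 h and 2 at 120 h. Its 3 lost regions lay 12.4, 27.3 and 29.8 kb upstream, and its promoter was constant. Dusp4 had 9, 10, 9, 11, 10, 10, 7, 5, 2 and 3 peaks, with an intronic lost region at 34815114 to 34815938 on chromosome 8 and 2 more at 42.6 and 67.5 kb. Dusp5, an ERK phosphatase, went from 4 peaks to 1, with lost regions at 26.2 and 28.5 kb upstream.

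Dusp6, the feedback phosphatase of ERK in the cytoplasm, held a different mix. It had 16, 15, 13, 18, 20, 17, 19, 14, 10 and 8 peaks, with a maximum at 24 h. Of its 23 regions 5 were constant, as many as at Map3k20, with 4 of them within 8 kb of the TSS, at 1.48 kb upstream, at the promoter, and at 5.56 and 7.29 kb downstream. The remaining constant region lay 168 kb away (chromosome 10, 99430652 to 99431537), near a gained region at 99425278 to 99425693 that was listed from 72 h. A region 65.5 kb downstream was lost and 3 were transient. Dusp7, a related phosphatase, went from 5 peaks to 4 with 1 gained and 1 lost region. Dusp10, which acts on p38 and JNK, went from 6 peaks to 2 and kept 0 of 6 distal peaks, and Dusp8 had 4 and 3 with 2 constant regions.

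Among the other dual phosphatases, Dusp3 stood apart. Dusp3, also called VHR, can act on ERK and JNK. It had 0 peaks in the first 3 lists, 2 in those of 24 and 48 h, and 1 in each of the others. Its promoter region, 256 bp inside the gene (chromosome 11, 101983949 to 101985122) and annotated as a CpG island, was the 1 gained promoter region of these genes, or 1.89% of 53 against 1.29% of all promoter regions. The peak was 550, 466, 384 and 485 bp wide from 12 to 48 h and 957, 1174 and 1053 bp wide from 72 to 120 h, so that the late widths did not overlap the earlier ones. Dusp3 had a gained region under both reductions of the lists by width. Dusp22 and Dusp23 had 4 and 3 peaks at 0 h and 1 each at 120 h, each with a constant promoter. Dusp26 had 4 peaks at 0 h and 0 at 120 h. Dusp14 and Dusp21 had 1 peak, in a single list each.

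Promoters were then followed list by list. A promoter region was assigned to 46 of the 62 genes, and at 20 of them it was present in all 10 lists. It was present in 9 lists at 8 genes, in 7 or 8 at 11, and in 6 or fewer at 7. Of the 53 promoter regions 20 were constant (37.7% against 41.3% of all promoter regions) and 2 were lost (3.77% against 3.88%). Both shares were near those of all promoter regions. Genes with a promoter in all lists included Mapk3, Map2k1, Map2k2, Map2k5, Map2k6, Map2k7, Mapk8, Dusp2, Dusp6 and Dusp16. For 3 genes, Dusp12, Dusp13 and Dusp18, the promoter was listed at 0 h and not at 120 h, and for 6, Dusp3, Dusp4, Map3k5, Map3k14, Map3k20 and Map4k4, the reverse.

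**Figure D5:**
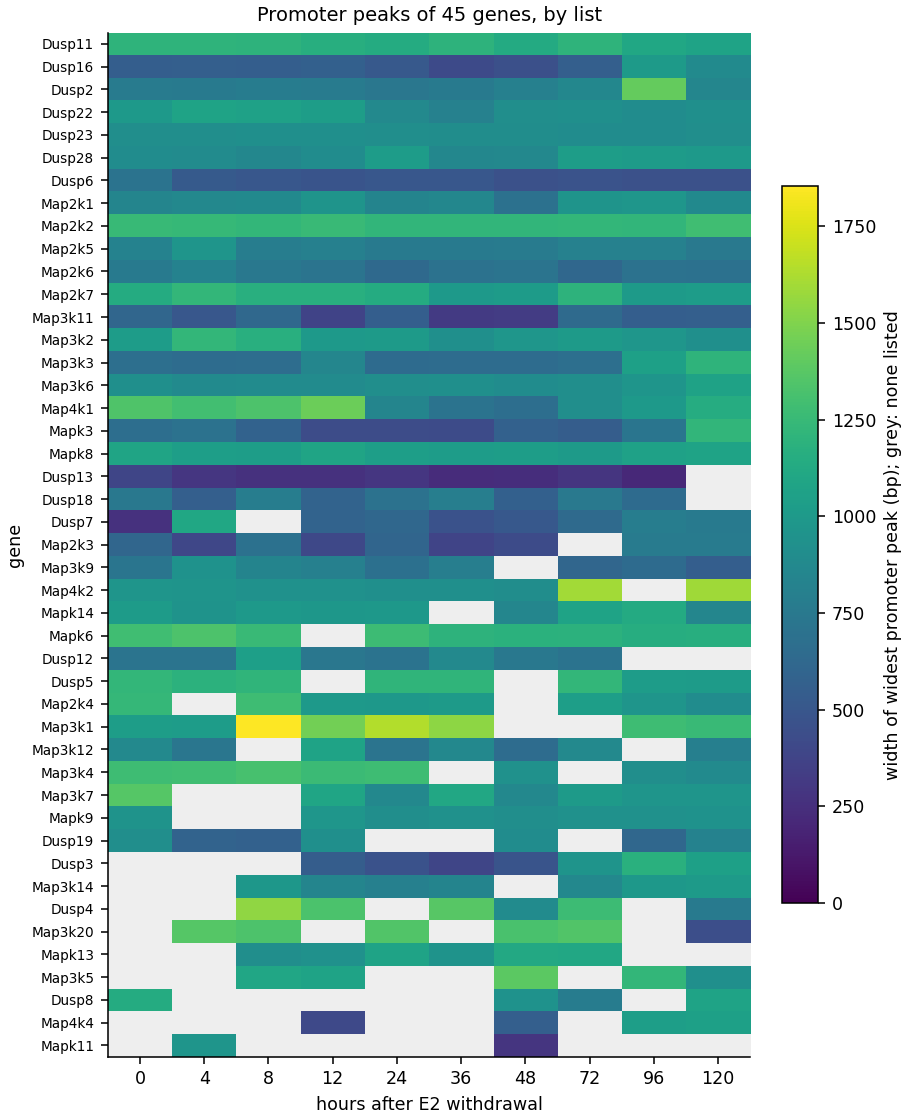
Width in bp of the widest promoter peak of 45 genes in each list, with grey where none was listed, ordered by the number of lists. The upper 19 genes have a promoter peak in all 10 lists, whereas Dusp4, Map3k5 and Map3k20 alternate between wide peaks and none.

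Several promoters alternated between a wide peak and none. Map3k5 had promoter peaks of 1099, 1073, 1387, 1226 and 925 bp in the 8, 12, 48, 96 and 120 h lists and none in the other 5 lists. Dusp4 had 1545 bp at 8 h, 1327 bp at 12 h, none at 24 h, 1375 bp at 36 h, none at 96 h and 765 bp at 120 h. Neighbouring lists therefore held opposite calls at the same promoter. At Map3k20 the promoter was absent at 0 h, 1368 bp wide at 4 h, and absent again at 12, 36 and 96 h. Of 34 promoter regions present at both 0 and 120 h, 14 were missing from at least 1 list between (41.2%), against 32% of all such promoter regions. The 14 had a median widest peak of 1184.5 bp and the other 20 of 1081.5 bp, and the widest peak of each of the 14 was at least 772 bp. The missing calls were spread over the lists, with 2 to 4 of the 34 promoters missing from each. The gains and losses of single promoters, that of Dusp3 included, are to be read beside this alternation.

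GC content moved with the alternation at these genes. The upstream windows of promoters missing from at least 1 list had a median GC content of 68.0% over 15 windows, and those present in all lists 58.8% over 20, with ranges of 48.4 to 85.2% and 50.4 to 79.2%. Over all genes the medians were 61.6% and 60.4%. Over all genes, the share of such windows missing from a list was 31.8% below 50% GC and 29.8% at 50 to 60%. It was 30.8% at 60 to 70% and 40.5% at 70% or more. At these genes it was 1 of 14 at 50 to 60% and 6 of 9 at 60 to 70%. At 70% or more it was 7 of 11, and below 50% 1 of 1. These counts are of windows, so that a promoter region with several start sites counts more than once. Mapk6 and Mapk14 each had more than 1 window on a region missing from a list, and Map4k1 more than 1 on a constant region. The part of GC content in the alternation was not tested.

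Assignment to the nearest gene also limits the count of promoters. The upstream windows of Dusp10 and Map4k5 overlapped a constant region that was assigned to 1700056E22Rik and Atl1, and that of Map3k10, which has no assigned peak, overlapped 1 assigned to Zfp607b. Intronic regions made up 173 of the 368, of which 139 lay in the gene itself. The others lay in neighbours, with 10 in Rapgef4, 6 in Tnks near Dusp4 and 6 in Arhgap22 near Mapk8 among them. Over all 368 regions, 140 were intergenic (38%, against 41.6% of all regions) and 80 were on annotated repeats (21.7% against 22.3%), shares near those of all regions.

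Other genes of the pathway, from Ras and Raf to scaffold proteins, downstream kinases and nuclear targets, had fewer peaks at 120 h by about as much as the genome. Of 55 genes, 54 had a peak, with 306 peaks at 0 h and 130 at 120 h, and the log2 ratio was -1.23, as over all genes. Of the 54, 39 had fewer peaks at 120 h (72.2% against 71.4% of all genes), 13 as many and 2 more. Nf1, a Ras inhibitor, went from 1 peak to 4 and Rasgrp4, a Ras activator of myeloid cells, from 1 to 2. Feedback inhibitors of Ras signalling were among those with the lowest late counts, with Spry2 at 12 and 0 peaks, Spred2 at 18 and 3 and Spry4 at 13 and 3. Trib1, a pseudokinase gene, had 8 peaks at both times and 16 in the 36 h list. Gadd45g, an activator of stress kinases, had 12 and 7 peaks and 2 gained regions, more than any other gene of that list.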

How the data were processed

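The authors deposited 1 annotated peak list per time point for 2 samples each, and how the replicates were combined is not stated in the labels or headers. Per the file headers, lists were annotated with HOMER's annotatePeaks.pl against mm10, while the submitters' processing notes name mm9 and list BWA, MACS2 2.0 and STAR 2.5 with no role or order. The deposited peak score is 0 for every peak (0 of 504887 differ), so peaks could not be ranked by it. Peak start, end and TSS distance are used as deposited, in bp counted from 1.

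Peaks overlapping by at least 1 bp between lists were merged by chaining, and a region took the gene and annotation of its widest peak. Peaks within 1000 bp of a TSS were called promoter peaks. The values of 1 member, included in sums and counts, are not reported here. Genes named in full are those with a gained region, those with most lost, transient or constant regions, those with a gained or lost promoter, and the largest changes per tier. Others, named for a role or a promoter pattern, were chosen after their values were seen. The members and gene lists were chosen with earlier results of these data known. Comparisons are counts and shares with 95% Wilson intervals. Sorting into classes was tested on simulated data. Alternatives covered overlap, promoter distance, gene window, list length and the lists used. Python 3.11.15, numpy 2.4.6, pandas 2.3.3, statsmodels 0.14.6 and matplotlib 3.10.9 were used.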

Additional observations from a re-analysis of the deposited data

How the results depend on the processing

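Of 42 recomputed values, 27 stayed within 1.5 times the count or within the interval of the share, 14 moved further and 1 changed direction. With lists of equal length by width, the log2 ratio of summed peaks changed from -0.98 to 0.06. Over all peaks, this setting fixes the ratio at no change. At these genes 95% of promoter and 43.1% of distal 0 h peaks were overlapped at 120 h, against 84% and 35.4% over all genes. Here 14 regions were gained, 9 lost, 9 transient and 29 constant, and 12 genes had fewer peaks at 120 h. Over all genes 2463 regions were gained, 3185 lost, 2313 transient and 7202 constant. Genes with fewer peaks at 120 h were not counted over all genes under this setting. This setting leaves fewer peaks in every list but the shortest. With the widest 50% of every list, 20.7% of distal 0 h peaks were overlapped, against 15.2% over all genes. Under that setting 6 regions were gained, 19 lost and 27 constant, against 629, 5107 and 6025 over all genes. Taking 96 h in place of 120 h gave a distal share of 41.2%. Gained regions numbered 8 within 50 kb of the TSS, since fewer regions were counted. With 2 early and 2 late lists, which asks less of a region, 24 were gained and 82 lost. For these last 2 settings regions over all genes were not counted, so the counts have no share beside them. No paired analysis was possible because each time point has 1 list for both replicates and no test was made. Leaving out a replicate was not possible for the same reason. Depth limits these counts, and read numbers were not analysed here.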
